A study of Homo sapiens with 6 samples.

Results

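The genes of the classical guidance families were followed in keratinocytes depleted of Agrin, namely the Eph receptors and ephrins, the semaphorins with plexins and neuropilins, the Slits and Robos, and the netrins and UNC5 receptors. Members were taken by gene name, with earlier results of these data known. Such a name was carried by 51 of the 14168 genes listed, and 44 of these reached at least 0.5 CPM (the reads of a gene scaled to the size of the library) in at least 3 of 6 libraries and were tested among 13050 genes. RNA came from HaCaT cells, an established and immortalised human keratinocyte line cultured on stiff plastic. Cells were transfected either with control siRNA (siControl, n = 3) or with Agrin siRNA (siAgrin, n = 3), and the sources used here name neither the Agrin siRNA sequenced nor the time of harvest. Nothing in the labels says that the replicates were separate cultures, so the p-values measure the spread between these libraries, which may be technical.

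Guidance proteins were first described as cues that attract or repel growing axons, and the same families act between epithelial cells. Ephrins are tethered to the cell surface and signal to Eph receptor tyrosine kinases on a touching cell, while semaphorins bind plexins, in part with neuropilins as co-receptors, and Slits and netrins are secreted and bind Robo and UNC5 receptors. In epidermis the EPHA2 receptor and its ligand ephrin-A1 are known for their part in keratinocyte adhesion, migration and differentiation. Most of these receptors act on small GTPases and thereby on the actin cytoskeleton.

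The libraries held 45175855 to 46566571 reads by the deposited scaling, so counting error is small for all but the lowest genes. AGRN itself stood at 821 ± 20.9 CPM under siControl and 401 ± 12.3 CPM under siAgrin (SD, n = 3), or 48.8% of the control level, with no overlap between groups. All 8 keratinocyte markers were expressed and summed to 10986 to 12228 CPM under siControl and 11733 to 14234 CPM under siAgrin, of which KRT14 and DSG3 rose. The 8 fibroblast markers summed to 12.2 to 19.7 CPM under siControl and 9.47 to 47.5 CPM under siAgrin, with the highest sum in siAgrin 2, and none passed the test. Of the 8 endothelial markers 3 were listed, at 23.0 to 30.1 CPM under siControl and 4.65 to 6.88 CPM under siAgrin, of which CDH5 fell and TEK stayed under 0.5 CPM. Of the 8 leukocyte markers 3 were listed, at 39.1 to 51.0 CPM under siControl and 26.0 to 39.03 CPM under siAgrin, mostly CD68, while HLA-DRA fell and CD14 stayed under 0.5 CPM. PMEL, the only melanocyte marker listed, had 3.26 to 3.87 CPM under siControl and 1.99 to 2.93 CPM under siAgrin. Of the neuron and Schwann cell markers SYN1 and STMN2 were listed, at a sum of 3.16 to 3.84 CPM under siControl and 4.23 to 4.61 CPM under siAgrin, with STMN2 at 0 in every library. The part of these markers in the results was not tested.

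HaCaT cells expressed every guidance class, and plexin-B2, ephrin-A1, ephrin-B1 and semaphorin 4B led per kb of exon. Among receptors of semaphorins PLXNB2 stood at 59.7 ± 5.16 CPM per kb (SD, n = 3) in siControl libraries, 53.9% of the class sum, followed by PLXNA1 at 19.1 ± 0.327 CPM per kb and PLXNA2 at 11.0 ± 0.406 CPM per kb. Of the semaphorins SEMA4B, a membrane-bound ligand, stood at 42.9 ± 5.44 CPM per kb, ahead of the secreted SEMA3F at 15.0 ± 0.460 and the transmembrane SEMA6B at 13.7 ± 0.399 CPM per kb. The ephrins EFNA1 and EFNB1 reached 46.2 ± 2.96 and 38.3 ± 2.45 CPM per kb. The Eph receptors were more even, with EPHA2 at 14.9 ± 1.39, EPHB4 at 12.1 ± 0.487, EPHA1 at 11.0 ± 0.393 and EPHB3 at 9.80 ± 0.304 CPM per kb, and the libraries of these neighbours did not overlap. With the longest transcript in place of all exons as the length, EPHA2 stood at 15.64, EPHA1 at 15.55 and EPHB4 at 15.37 CPM per kb. EPHA2 thus stayed first by little, and the order of EPHB4 and EPHA1 rests on the length used. By that length NRP2, at 15.3, also stood ahead of PLXNA2, at 13.3 CPM per kb. SEMA4B then led all guidance genes at 79.3 CPM per kb, ahead of PLXNB2 at 67.7 and EFNA1 at 64.5. NTN4, a secreted netrin of basement membranes, and the netrin receptor gene UNC5B stood at 25.0 ± 1.46 and 17.5 ± 0.412 CPM per kb. Slits and Robos were lowest, with ROBO1 at 4.53 ± 0.0686 and SLIT2 at 1.28 ± 0.0346 CPM per kb. The neighbours EFNA3 and EFNB2, SEMA3C and SEMA4C, SEMA7A and SEMA4A, SEMA3B and SEMA6C, and PLXNB1 and NRP2 had overlapping siControl libraries, so their order is not set.

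**Figure D1:**
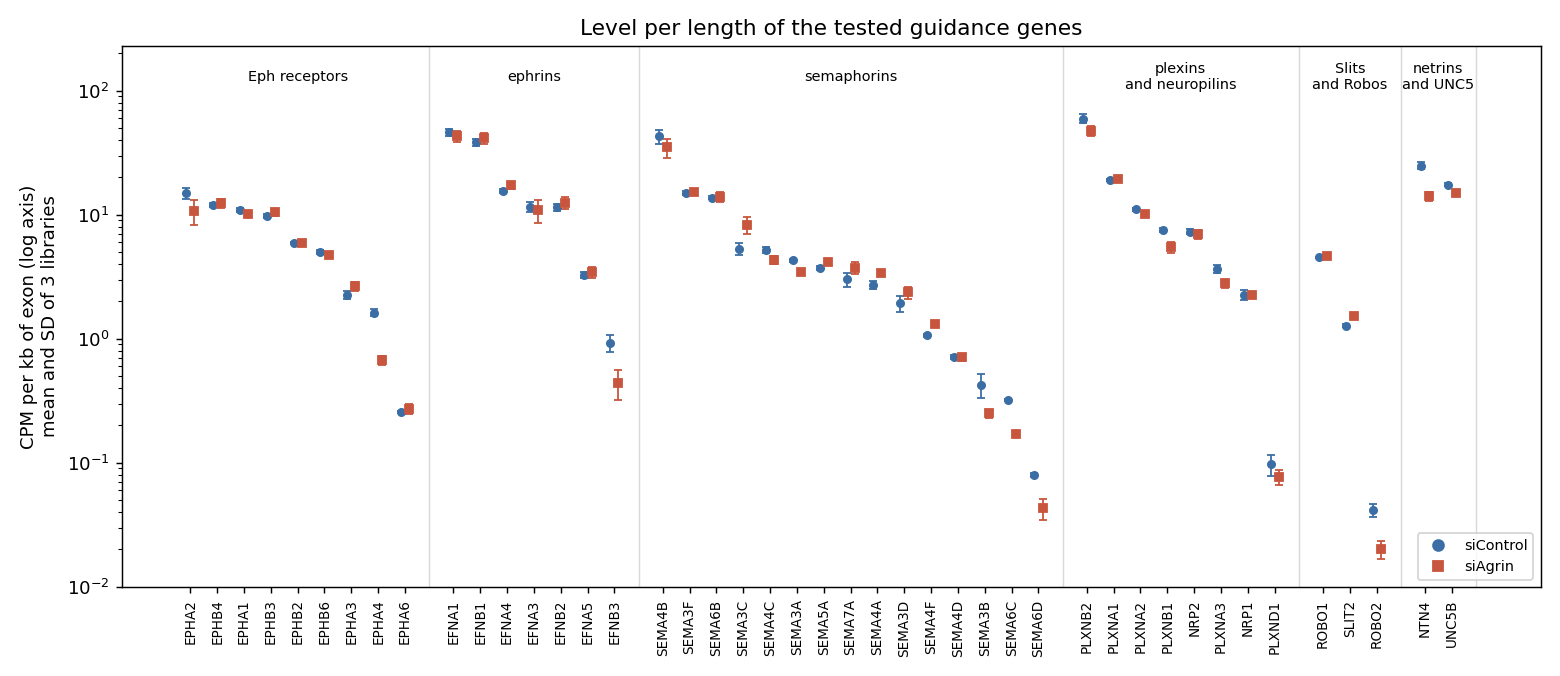
Level per length of the 44 tested guidance genes, in CPM per kb of exon on a log axis, with circles and squares for the siControl and siAgrin means and bars for the SD of 3 libraries. PLXNB2 leads its class at 59.7 CPM per kb in siControl libraries, and the gaps between groups are wide at EPHA4, EFNB3 and SEMA6C. SEMA6D and ROBO2 did not pass the test and reached the filter under siControl alone, so their gaps are a description.

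In siAgrin libraries 8 of the 44 tested guidance genes fell and 2 rose, while 34 were not called. The genes that fell were EPHA4, NTN4, SEMA6C, SEMA3A, PLXNB1, EFNB3, PLXNA3 and UNC5B, and those that rose were SEMA3C and SEMA4A. A gene is said to fall or rise at a limma adjusted p below 0.01 over all 13050 genes, and log2 fold changes compare siAgrin with siControl on log2(CPM + 0.5), with their standard error (SE). The 8 that fell are 18.2% of the members, beside 9.07% of all tested genes, and the 2 that rose are 4.55%, beside 9.14%. The called members are 22.7% in either direction, beside 18.2% of all tested genes, and no test compared these shares. The median log2 fold change was -0.05 for the members and -0.00 for all tested genes. EPHA4 was the only called member with more than 2-fold change on this scale, which 1.55% of all tested genes reached. In these bulk samples fewer cells that express a gene and less RNA per cell cannot be told apart. EPHA4 and NTN4 passed under each of the 18 alternatives. The other 8 did not pass without siControl 2 (limma adjusted p = 0.012 to 0.045), without siControl 3 (0.01 to 0.044) or without siAgrin 3 (0.011 to 0.05), so 2 members fell and none rose there, while all 10 passed without siAgrin 2, where 12 fell and 2 rose, beside 12.9% and 12.8% of all tested genes. Over all tested genes 2.6%, 2.98% and 2.28% fell and 2.51%, 2.88% and 2.09% rose when siControl 2, siControl 3 or siAgrin 3 was left out.

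**Figure D2:**
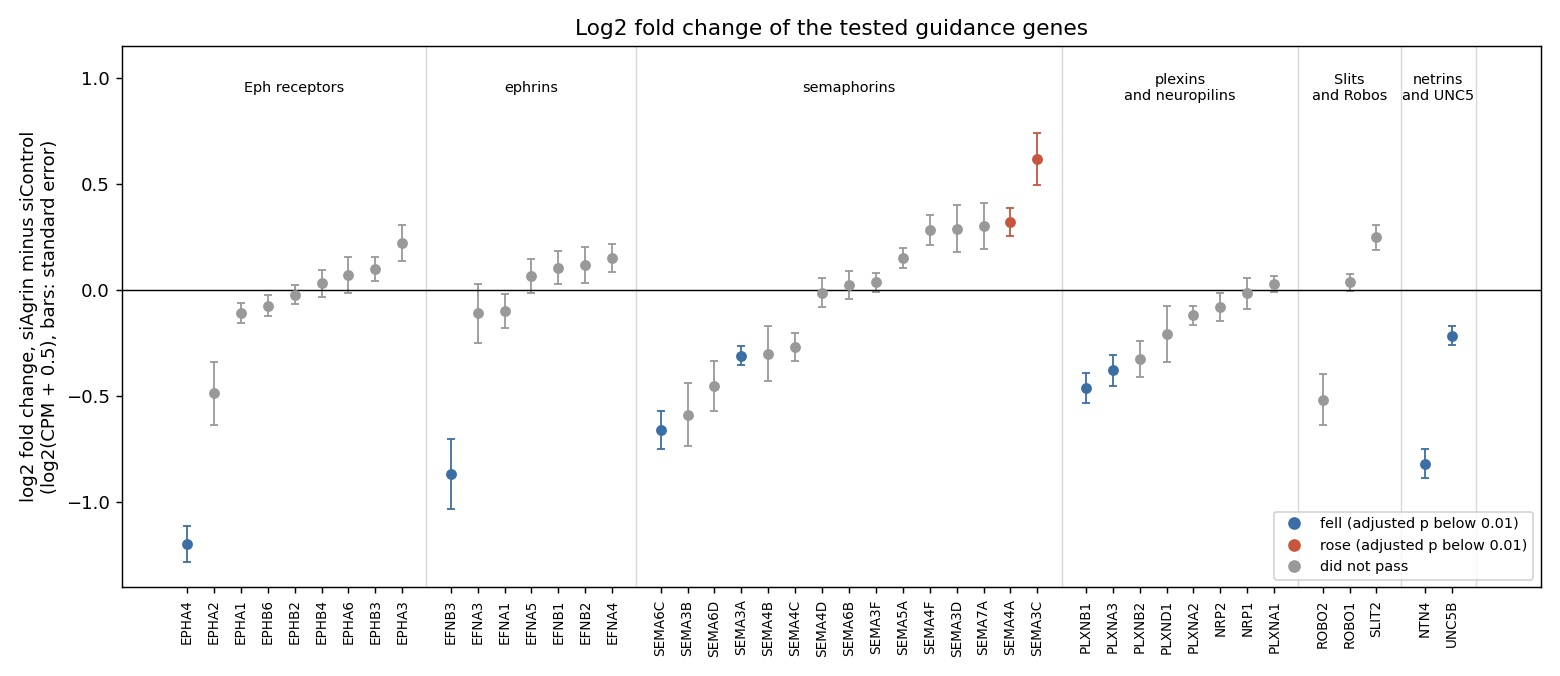
Log2 fold change of the 44 tested guidance genes, siAgrin minus siControl on log2(CPM + 0.5), ordered within each class, with bars for the standard error and colours for the 8 genes that fell and the 2 that rose. EPHA4 at -1.20 and SEMA3C at 0.62 mark the ends of the range, and the median is -0.05, beside -0.00 for all tested genes.

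Every siAgrin library lay below every siControl library in 17 of the 44 members and above in 7, or 38.6% and 15.9%, beside 24.9% and 25% of all tested genes, and the 17 include ROBO2 and SEMA6D, which reached the filter under siControl alone. For a single gene whose groups do not overlap, an exact two-sided permutation test over the libraries gave p = 0.1, the smallest that 3 libraries against 3 allow. Replicates of the members differed by a median coefficient of variation of 4.76% in siControl and 8.27% in siAgrin libraries. Within the siAgrin group, siAgrin 2 was the highest library for 28 of the 44 members and siAgrin 1 the lowest for 23. Over all tested genes siAgrin 2 was the highest for 40.6% and siAgrin 1 the lowest for 40.2%. Within the siControl group, siControl 1 was the lowest for 24 members, or 54.5%, beside 39.5% of all tested genes.

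Among the Eph receptors EPHA4 fell and the other 8 did not pass. EPHA4 encodes a receptor kinase that binds ephrins of both the A and the B class and its gene spans 221418027 to 221574202 on chromosome 2 (GRCh38). Its level was 11.5, 13.1 and 12.1 CPM under siControl and 5.07, 5.50 and 4.60 CPM under siAgrin. The groups lay far apart, and the mean went from 12.2 ± 0.816 to 5.06 ± 0.451 CPM (SD with n = 3, log2 fold change -1.20, SE 0.085, limma adjusted p = 1.5e-04). An antisense gene overlaps an exon of EPHA4, and the strand setting of the counting is not given in the sources used here. EPHA2 measured 56.8, 60.3 and 68.1 CPM under siControl and 35.3, 55.6 and 42.7 CPM under siAgrin. Each siAgrin library lay below the siControl range, but siAgrin 2 came close to it and the gene did not pass (log2 fold change -0.49, SE 0.15, limma adjusted p = 0.035). EPHA2 passed without siAgrin 2, in DESeq2 (adjusted p = 0.0056) and with replicate number as a block (adjusted p = 0.0027).

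The EphA receptors together summed to 139, 144 and 152 CPM under siControl and 111, 132 and 116 CPM under siAgrin, whereas the EphB receptors summed to 223, 220.1 and 228 CPM and to 221, 237 and 220.3 CPM. The EphA ranges were apart and the EphB ranges overlapped. The EphA sum is no class-wide fall, since only EPHA4 of the 5 genes was called. EPHA2, not called, had means of 61.7 and 44.5 CPM. EPHA1 was also lower in the mean under siAgrin, and EPHA3 and EPHA6 were higher. None of the 4 EphB genes passed, and for EPHB2 the log2 fold change of -0.02 had a 95% confidence interval from -0.12 to 0.08. EPHB4, a receptor for ephrin-B2, had a log2 fold change of 0.03 with an interval from -0.12 to 0.18, and EPHA1 of -0.11 with an interval from -0.22 to -0.00. Both overlap a gene on the opposite strand. SLC12A9, opposite EPHB4, had 24.7 to 27.1 CPM under siControl and 18.7 to 19.9 CPM under siAgrin, and ZYX, opposite EPHA1, had 91.0 to 109 and 72.8 to 86.8 CPM. In the share of the class per kb, EPHA2 went from 23.7% to 18.5% and EPHB4 from 19.2% to 21.3%, but the siAgrin libraries of these genes overlapped per kb, so their order under siAgrin is not set. EPHA3 had 14.8 ± 1.20 and 17.4 ± 1.53 CPM and the lowest member, EPHA6, had 4.71 ± 0.0445 and 4.98 ± 0.478 CPM, neither past the test.

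Of 7 ephrin genes EFNB3, the least expressed, fell and the other 6 did not pass. EFNB3 encodes a transmembrane ephrin and measured 2.56, 3.51 and 2.88 CPM under siControl and 1.04, 1.81 and 1.41 CPM under siAgrin. The ranges were apart, with a mean of 2.98 ± 0.485 against 1.42 ± 0.386 CPM (SD with n = 3, log2 fold change -0.87, SE 0.17, limma adjusted p = 0.006), and EFNB3 also missed the threshold without siControl 1 (adjusted p = 0.011). The more abundant ephrins are given with their intervals. EFNA1 measured 92.7, 104 and 103 CPM under siControl and 86.7, 105 and 89.2 CPM under siAgrin (log2 fold change -0.10, 95% confidence interval -0.28 to 0.08). EFNB1 went from 127 ± 8.09 to 136 ± 13.5 CPM (log2 fold change 0.10, interval -0.08 to 0.28) and EFNB2, a ligand of EPHB4, from 57.5 ± 4.25 to 62.6 ± 6.93 CPM. The genes EFNA4, EFNA3 and EFNA1 are neighbours on chromosome 1, with gaps of 9.28 and 40.3 kb, and had log2 fold changes of 0.15, -0.11 and -0.10. The annotation also holds a readthrough transcript that shares exons with EFNA4 and EFNA3, so reads in these exons may not all be counted for this pair. The ephrin-B genes summed to 187 ± 4.72 CPM under siControl and 200.3 ± 7.10 CPM under siAgrin.

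Of 15 tested semaphorins SEMA3C and SEMA4A rose, SEMA6C and SEMA3A fell, and 11 did not pass. SEMA3C is a secreted semaphorin that signals through neuropilins and plexins. It measured 36.8, 29.5 and 31.1 CPM under siControl and 58.2, 42.2 and 50.6 CPM under siAgrin. All siAgrin libraries were above the controls, with siAgrin 2 the closest, and the mean went from 32.5 ± 3.83 to 50.3 ± 8.01 CPM (SD with n = 3, log2 fold change 0.62, SE 0.12, limma adjusted p = 0.0068). SEMA3A, the secreted ligand of neuropilin-1 known for growth cone collapse, went the other way. It measured 40.9, 39.1 and 39.4 CPM under siControl and 32.8, 31.6 and 31.5 CPM under siAgrin, with little spread in either group (log2 fold change -0.31, SE 0.044, limma adjusted p = 0.0018). The 2 genes lie on the same strand of chromosome 7, SEMA3C from 80742538 to 80922359 and SEMA3A from 83955777 to 84492724. Another class 3 gene, SEMA3D, follows SEMA3A after 503 kb and had 15.9 ± 2.23 and 19.5 ± 2.07 CPM (log2 fold change 0.29, adjusted p = 0.076 from limma). SEMA3F, the most abundant class 3 semaphorin, had a log2 fold change of 0.03 with a 95% confidence interval from -0.07 to 0.14. As a sum, the class 3 semaphorins stood at 163 ± 4.56 CPM under siControl and 177 ± 8.01 CPM under siAgrin.

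SEMA4A, a membrane semaphorin that binds plexins, measured 20.0, 17.4 and 17.7 CPM under siControl and 23.8, 22.4 and 22.7 CPM under siAgrin (log2 fold change 0.32, SE 0.066, limma adjusted p = 0.0082). It sat just inside the threshold and also missed it without siAgrin 1 (adjusted p = 0.015). SEMA6C, a transmembrane semaphorin expressed at a low level, measured 1.87, 1.86 and 1.80 CPM under siControl and 0.952, 1.00 and 0.998 CPM under siAgrin. Its replicates agreed closely in both groups (log2 fold change -0.66, SE 0.090, limma adjusted p = 0.0015). SEMA4B, the leading semaphorin, measured 256, 322 and 321 CPM under siControl and 207, 289 and 236 CPM under siAgrin. Its groups overlapped, since siAgrin 2 was above siControl 1, and it did not pass (log2 fold change -0.30, 95% confidence interval -0.60 to 0.00, adjusted p = 0.11 from limma). SEMA4B passed with replicate number as a block (limma adjusted p = 0.0018) and without siAgrin 2 (limma adjusted p = 0.0099). SEMA6B had 64.7 ± 1.88 and 65.9 ± 6.11 CPM. SEMA3B and SEMA4C, at log2 fold changes of -0.59 and -0.27, and SEMA4F, at 0.28, had ranges that did not overlap and an adjusted p of 0.017 each from limma.

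Of the semaphorin receptors PLXNB1 and PLXNA3 fell, none rose and 6 did not pass. PLXNB1, the receptor of SEMA4D, measured 70.3, 75.4 and 74.3 CPM under siControl and 49.7, 59.3 and 50.7 CPM under siAgrin. The siAgrin libraries stayed below the controls, at a mean of 53.2 ± 5.28 against 73.3 ± 2.67 CPM (SD with n = 3, log2 fold change -0.46, SE 0.070, limma adjusted p = 0.0023). PLXNA3, which pairs with neuropilins to bind class 3 semaphorins, measured 39.1, 44.4 and 44.8 CPM under siControl and 31.6, 35.6 and 31.2 CPM under siAgrin (log2 fold change -0.38, SE 0.073, limma adjusted p = 0.0061). LAGE3 overlaps PLXNA3 on the opposite strand and had 6.98 to 7.88 CPM under siControl and 7.05 to 7.77 CPM under siAgrin. PLXNB2, a receptor of class 4 semaphorins, measured 391, 458 and 453 CPM under siControl and 319, 382 and 338 CPM under siAgrin. Although its groups did not overlap, PLXNB2 missed the threshold (log2 fold change -0.32, SE 0.084, limma adjusted p = 0.019). It passed in DESeq2 (adjusted p = 0.0018), with replicate number as a block (adjusted p = 4.7e-04) and without siAgrin 2. The plexin-B genes summed to 508 ± 40.3 CPM under siControl and 400.4 ± 37.5 CPM under siAgrin, and the plexin-A genes to 409.9 ± 10.9 and 392 ± 5.87 CPM.

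PLXNA1 had 214 ± 3.67 and 218 ± 5.37 CPM, a log2 fold change of 0.03 with a 95% confidence interval from -0.06 to 0.12. The neuropilins NRP1 and NRP2, co-receptors of class 3 semaphorins and of VEGF, had log2 fold changes of -0.02 (interval -0.18 to 0.15) and -0.08 (interval -0.23 to 0.07). SEMA4D, the ligand of PLXNB1, had 10.1 ± 0.356 and 10.0 ± 0.662 CPM. PLXND1 was near the filter at 0.933 ± 0.179 and 0.736 ± 0.107 CPM, and PLXNB3 and PLXNC1 were under it.

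Both tested genes of the netrin class fell. NTN4, whose product binds laminins in basement membranes, lies on chromosome 12 from 95657807 to 95791189. It measured 102, 114 and 111 CPM under siControl and 57.2, 66.9 and 60.6 CPM under siAgrin. The groups were far apart, and the mean of 61.6 ± 4.92 CPM in siAgrin was 56.5% of the 109 ± 6.38 CPM in siControl libraries (SD with n = 3, log2 fold change -0.82, SE 0.068, limma adjusted p = 2.5e-04). UNC5B measured 116, 121 and 122 CPM under siControl and 102, 108 and 99.1 CPM under siAgrin. The step is small beside that of NTN4 and near the threshold (log2 fold change -0.22, SE 0.045, limma adjusted p = 0.0085), and UNC5B also missed it without siControl 1 (adjusted p = 0.016) or siAgrin 1 (adjusted p = 0.014). Per kb, NTN4 led the class at 25.0 against 17.5 CPM for UNC5B in siControl libraries, while under siAgrin UNC5B stood at 15.0 ± 0.667 and NTN4 at 14.1 ± 1.13 CPM per kb. The siAgrin libraries of these genes overlapped, and with the longest transcript as the length NTN4 stood at 17.0 and UNC5B at 15.0 CPM per kb, so their order under siAgrin is not set. NTN1 had at most 0.236 CPM in any library.

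No Slit or Robo gene passed the test. ROBO1 measured 50.9, 50.0 and 49.4 CPM under siControl and 52.2, 50.9 and 51.0 CPM under siAgrin, a log2 fold change of 0.04 with a 95% confidence interval from -0.06 to 0.13. Its ligand SLIT2 measured 14.5, 14.0 and 13.8 CPM under siControl and 16.8, 17.6 and 16.1 CPM under siAgrin. SLIT2 was higher in each siAgrin library but just outside the threshold (log2 fold change 0.25, SE 0.058, limma adjusted p = 0.013), and passed in DESeq2 (adjusted p = 0.0075) and with replicate number as a block (adjusted p = 0.0072). ROBO2, just inside the filter, had 0.697 ± 0.0836 CPM under siControl and 0.336 ± 0.0541 CPM under siAgrin. ROBO2 and SEMA6D reached the filter through their siControl libraries alone, so their values are a description. PLXNB3, just outside the filter, had 0.417 ± 0.0887 and 0.655 ± 0.269 CPM. The 7 listed members under the filter were NTN1, PLXNB3, PLXNC1, ROBO3, ROBO4, SEMA4G and SLIT3. Of these SEMA4G and SLIT3 had no read in any siControl library, where 3 reads correspond to 0.0644 to 0.0650 CPM.

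**Figure D3:**
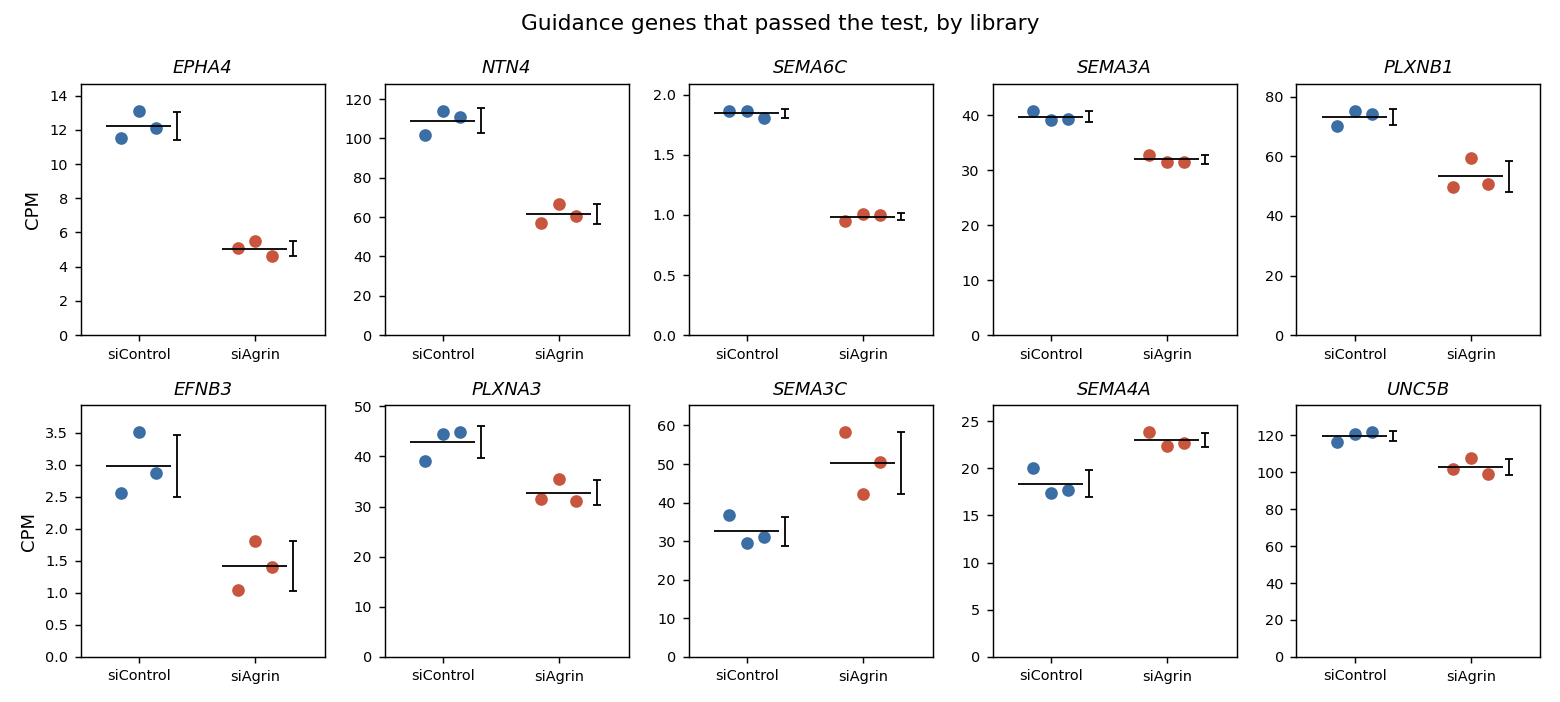
CPM in each library of the 10 guidance genes that passed the test, ordered by p-value, with points for libraries, lines for the mean and bars for the SD of 3 libraries, on axes that start at 0. The siControl and siAgrin points do not overlap in any panel, and only SEMA3C and SEMA4A are higher in siAgrin libraries.

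The promoters of EPHA4, NTN4, SEMA3C and SEMA4A are shown as the 250 bases before the first listed RefSeq start site (GRCh38.p14, strand of the gene). EPHA4 and NTN4 passed under every alternative, and SEMA3C and SEMA4A are the members that rose. Capitals mark matches on either strand to a GC box (GGGCGG), the AP-1 motif (TGANTCA), the TEAD motif (GGAATG) or a TATA box (TATAAA), motifs picked after the values were seen. The windows are chr2:221574203-221574452 on the minus strand, chr12:95791156-95791405 on the minus strand, chr7:80922390-80922639 on the minus strand and chr1:156149694-156149943 on the plus strand, in the order below.
EPHA4: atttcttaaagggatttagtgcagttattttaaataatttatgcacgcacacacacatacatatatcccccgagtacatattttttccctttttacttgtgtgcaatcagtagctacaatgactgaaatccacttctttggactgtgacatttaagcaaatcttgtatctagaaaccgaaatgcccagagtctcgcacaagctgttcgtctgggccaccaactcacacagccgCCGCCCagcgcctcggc
NTN4: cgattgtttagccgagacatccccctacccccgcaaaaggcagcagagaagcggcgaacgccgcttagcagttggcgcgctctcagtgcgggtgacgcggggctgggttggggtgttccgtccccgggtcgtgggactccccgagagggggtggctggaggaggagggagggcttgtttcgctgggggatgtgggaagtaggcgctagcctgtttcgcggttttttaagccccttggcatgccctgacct
SEMA3C: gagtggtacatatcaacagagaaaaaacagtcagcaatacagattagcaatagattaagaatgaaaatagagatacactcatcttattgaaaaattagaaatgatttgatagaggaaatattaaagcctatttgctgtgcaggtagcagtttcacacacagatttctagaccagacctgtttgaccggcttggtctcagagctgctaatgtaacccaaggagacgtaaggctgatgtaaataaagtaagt
SEMA4A: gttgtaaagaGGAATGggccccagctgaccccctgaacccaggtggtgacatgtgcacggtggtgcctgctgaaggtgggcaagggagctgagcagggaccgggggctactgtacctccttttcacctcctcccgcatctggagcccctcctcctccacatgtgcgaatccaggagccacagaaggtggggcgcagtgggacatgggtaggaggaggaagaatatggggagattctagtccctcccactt
Of these 4 windows the one of EPHA4 held 1 GC box and that of SEMA4A 1 TEAD motif, and those of NTN4 and SEMA3C held none of the motifs. RefSeq promoters were found for 39 of the 44 tested members, of which 29 held a GC box (74.4%, beside 42.6% of 35116 promoters of all genes). None of the 39 held the AP-1 motif (6.57% of all promoters), 2 the TEAD motif (11.9%) and 1 the TATA box (10.7%). The median GC content was 67.6% for the members and 58% for all promoters, while the windows of EPHA4 and SEMA3C had 43.2% and 36.4%. Each member gave 1 window and had passed the expression filter. The 35116 promoters were reduced neither to 1 per gene nor to expressed genes. These shares and medians thus set unlike groups side by side and show no trait of guidance genes. The SEMA4A window lies within the annotated gene, which starts at 156147366, so it precedes an internal start site. The NTN4 window overlaps the annotated start of NTN4 at 95791189. The start sites used in HaCaT cells are not known from these data, and a match is a description of the letters only.

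Of 89 tested genes that act with the guidance families 9, L1CAM included, rose and 6 fell, or 10.1% and 6.74%, beside 9.14% and 9.07% of all tested genes. In the list of co-receptors and other cues ADGRL2 and L1CAM were called higher and 2 of 12 genes fell, or 16.7% in each direction. ADGRL1, a latrophilin adhesion receptor, went from 11.9 ± 0.490 to 6.74 ± 0.420 CPM (SD with n = 3, log2 fold change -0.78, SE 0.071, limma adjusted p = 3.2e-04), while its relative ADGRL2 rose from 25.2 to 30.6 CPM. NEO1, which encodes the netrin and RGM receptor neogenin, measured 2.53, 2.56 and 2.66 CPM under siControl and 1.48, 1.38 and 1.28 CPM under siAgrin (log2 fold change -0.72, SE 0.090, limma adjusted p = 0.0011). L1CAM, an adhesion molecule that binds neuropilin-1, had 0.258 ± 0.0644 CPM under siControl and 0.809 ± 0.262 CPM under siAgrin (SD, n = 3). It reached the filter through its siAgrin libraries alone, so its values are a description, and without it 8 of 88 genes rose. It was highest in siAgrin 2, the library with the highest sum of fibroblast markers.

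Of 29 Eph and ephrin effectors CHN1, a Rac GTPase-activating protein, rose from 2.36 ± 0.155 to 4.47 ± 0.559 CPM (limma adjusted p = 0.0012, log2 fold change 0.79 with SE 0.10). The adaptor gene NCK2 fell from 57.3 to 45.7 CPM, and 27 did not pass, so 3.45% of this list rose and 3.45% fell. Of 22 semaphorin and plexin effectors 3 rose and none fell, or 13.6% and 0%, beside 9.14% and 9.07% of all tested genes. No test compared the shares of these lists. RHOD, a small GTPase that binds plexins, went from 36.8 ± 3.01 to 53.1 ± 0.568 CPM (log2 fold change 0.53, SE 0.061, limma adjusted p = 8.1e-04). The cofilin kinase gene LIMK2 rose from 73.3 to 91.6 CPM and DPYSL3, of the collapsin response mediator family, from 19.3 to 24.2 CPM. Of 17 Slit and netrin effectors 3 rose and 2 fell, or 17.6% and 11.8%. These 5 encode regulators of actin, adhesion and survival. The actin-binding ABLIM1 rose from 164 to 214 CPM and the filopodial myosin MYO10 from 78.7 to 101 CPM. ENAH, an actin elongation factor named after its values were seen, rose from 269.9 to 346 CPM. The focal adhesion kinase gene PTK2 fell from 163 to 131 CPM (log2 fold change -0.31) and DAPK1, a death-associated kinase that binds UNC5 receptors, from 184 to 152 CPM (log2 fold change -0.28). Of the genes of the 5 lists 4, 4 and 3 rose and 3, 3 and 2 fell when siControl 2, siControl 3 or siAgrin 3 was left out. Of all tested genes 2.51%, 2.88% and 2.09% rose there and 2.6%, 2.98% and 2.28% fell.

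**Figure D4:**
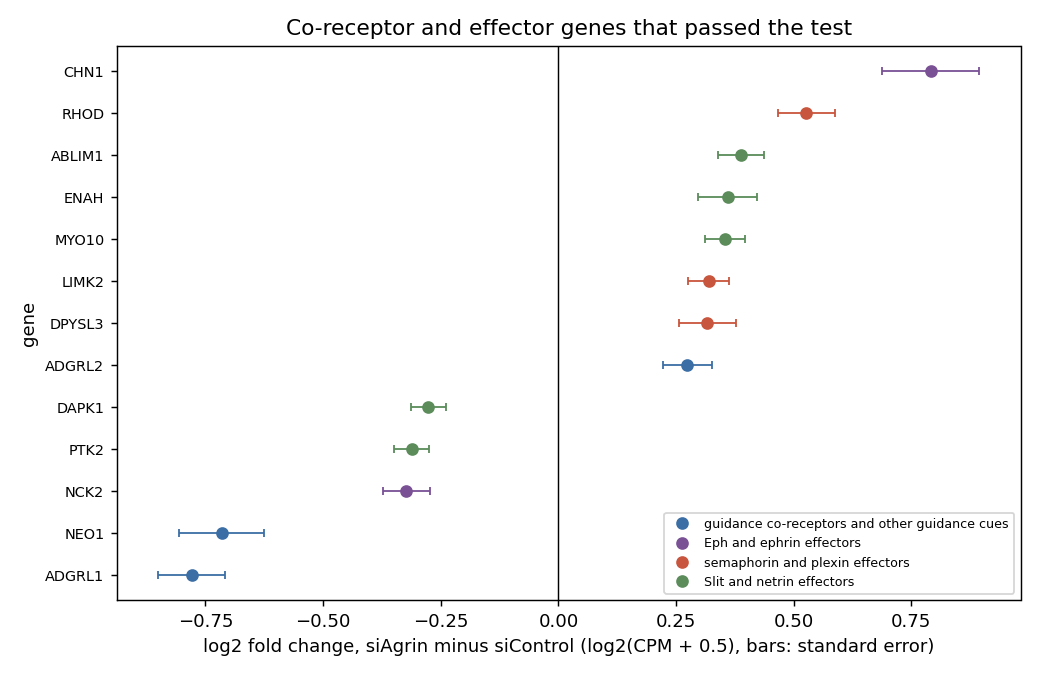
Log2 fold change, siAgrin minus siControl on log2(CPM + 0.5), of 13 co-receptor and effector genes of 4 lists that passed the test, L1CAM left out, with bars for the standard error and colours for the list each belongs to. The 8 that rose range from 0.27 (ADGRL2) to 0.79 (CHN1) and the 5 shown that fell from -0.78 (ADGRL1) to -0.28 (DAPK1).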

How the data were processed

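Polyadenylated RNA of HaCaT cells given a control siRNA (3 libraries) or an Agrin siRNA (3 libraries) was sequenced from stranded libraries as single reads. Alignment to hg38 used STAR 2.6.1d, and the authors then ran SAMtools, HTSeq with a GENCODE annotation for counts per gene, and edgeR. The labels and the paper differ in RNA kit, RNA input and medium, and the strand setting and filter on genes are not given in the sources used here. Per gene, the authors deposited CPM, and the listed genes hold 40958553 to 43312708 reads per library. In every library 100% of values equalled a whole number of reads to within 0.01 read, from which whole reads were recovered. Groups came from the sample titles, and no column was left out.

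The main test was the two-sided limma-trend fit (limma 3.58.1 under R 4.3.3) of log2(CPM + 0.5), keeping genes that reached 0.5 CPM in 3 or more libraries, with Benjamini-Hochberg adjustment over all 13050 tested genes and a threshold of 0.01, the false discovery rate of the study's methods, which also ask for a change of more than 2-fold. The study's own test is edgeR on counts, which was run here as an alternative on the recovered reads (edgeR 4.0.16, which called 2360 genes, and DESeq2 1.42.0, which called 3361). Other alternatives were a pseudocount of 0.1 or 2 CPM, testing without filter or only above a mean of 5 CPM, scaling by TMM or by median ratios, no trend, robust fitting, replicate number as a block, a threshold of 0.05 and each library left out in turn. The fits were tested on simulated data. Levels per kb used the union of exons in GENCODE v44 (GRCh38), which held all 51 members. Promoters are from RefSeq (GRCh38.p14). Members, gene lists and markers were chosen with earlier results of these data known, so no list was tested as a set. Named genes were AGRN, every called member, the 3 members of highest level per kb in each class and up to 4 called genes of smallest p in each list. Further members were named with their values as exceptions, and 1 list gene is not reported here.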

Additional observations from a re-analysis of the deposited data

How the results depend on the processing

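Among log2 fold changes of the 10 called members, 145 of 178 alternative fits kept direction and call, 33 lost the call and 0 turned direction. Of the other named members EPHB4 ranged from -0.0385 (without siAgrin 2) to 0.0727 with 1 library left out, and SEMA6B from -0.0455 (without siAgrin 2) to 0.0868, with -0.0012 without siControl 1, while neither passed in any fit. AGRN passed in all, at -1.06 to -1.01 with 1 library left out. With 1 library left out, 2 to 12 members fell, 0 to 2 rose and 1 to 2 changed more than 2-fold. In the same fits 3 to 9 genes of the 5 pathway lists rose and 2 to 7 fell. Of all tested genes 2.28% to 12.9% fell and 2.09% to 12.8% rose there. In the main fit 8 members fell and 2 rose, where 9.07% and 9.14% of all genes did. Without siAgrin 1, 7 members fell and 1 rose, where 9.33% and 9.2% of all genes did. The counts thus did not follow those of all genes in every fit. Members that rose numbered 1 without a filter, 0 without a trend, 4 with the replicate block and 5 at a threshold of 0.05, where 7.74%, 6.95%, 15% and 18.3% of all genes did. Members that fell numbered 13 with the replicate block and 14 at 0.05, where 15.4% and 18.5% of all genes did. The 14 include ROBO2 and SEMA6D, which reached the filter under siControl alone. More than 2-fold changed 2 members with 0.1 CPM added, 3 in edgeR, which also called ROBO2 lower, and 2 in DESeq2. Pathway genes that fell numbered 10 in DESeq2, 10 with the replicate block and 14 at 0.05, where 12.7%, 15.4% and 18.5% of all genes did. The deviations of same-numbered libraries correlated at 0.531, 0.381 and -0.002. By these values siControl 1 and siControl 2 correlated best with the siAgrin library of their own number, and siControl 3 with siAgrin 2 (0.347). With 3 libraries per group this does not settle whether same-numbered libraries were paired, and the main test took them as unpaired. TMM and median-ratio scaling changed no member's call, and the median of all genes stayed within 0.01 of 0. With the length of the longest transcript 19 of 24 levels per kb moved by more than 1 SD. Depth limits the lowest members, above all those under the filter.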
